A study of Homo sapiens with 10 samples.

Results

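The proteasome subunit genes were taken as the protein-coding symbols made of PSM, a letter from A to G and a number, on chromosomes 1 to 22 of the GENCODE annotation of hg19 (GRCh37). This gave 47 genes of 19222 protein-coding symbols, and PSMD10, a subunit chaperone gene on chromosome X, lay outside the rule. The members were sorted by the place of their product in the particle into 8 alpha ring, 7 beta ring, 4 inducible or tissue-specific beta, 9 base, 8 lid, 5 activator or inhibitor and 6 assembly genes. The libraries are chromatin immunoprecipitation sequencing (ChIP-seq) of HCT116, an established human colorectal carcinoma line, under routine culture, with no treatment, genotype change or time course in the labels. Peak lists of 5 antibodies were used, each from 1 library without replicates: total RNA polymerase II (Pol II), KAP1 (TRIM28, a chromatin-bound co-regulator of transcription), the small nuclear ribonucleoprotein 7SK snRNP through its proteins Larp7 and Hexim1, and Cdk9 (the kinase of the elongation factor P-TEFb). The series' title names the question, which is the recruitment of the 7SK snRNP to promoters by KAP1. The other 5 libraries of the series, an input, Ser5P Pol II and 3 histone marks, were not analysed here.

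The proteasome is the large protease that degrades ubiquitin-tagged proteins in the cytoplasm and nucleus of every human cell. Its core is a barrel of alpha and beta rings whose beta subunits hold the cutting sites, and the regulatory cap on its end is built from a base of ATPases that unfold and thread substrates and a lid that removes their ubiquitin. Activators can take the place of the cap, dedicated chaperones assemble the particle, and interferon exchanges the catalytic beta subunits for the inducible ones. The subunit genes are known to be expressed together, and when proteasome activity falls many of them are induced by the factor NFE2L1, which binds antioxidant response elements. At promoters, the 7SK snRNP holds P-TEFb inactive, and its release lets Cdk9 phosphorylate paused Pol II.

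The upstream sequences of 5 members are printed beside the promoter values that follow, and no relation between letters and values was tested. PSMD5 held a Pol II fold of 120.3, among the highest of the members, PSME1 held the highest KAP1 fold, PSMA5 and PSMC6 had Pol II without KAP1, and PSMB7 had no peak of any list at its promoter. Each run is the 250 bases before the annotated gene 5′ end in GRCh37, read 5′ to 3′ on the strand of the gene. Capitals mark matches on either strand to TGACNNNGC (an antioxidant response element), CCAAT (the letters of NF-Y sites), CCGGAAG (an ETS site) or GGGCGG (an Sp1 site), and a match is only a match of letters. The windows lie at chr9:123605230-123605479 (minus strand, PSMD5), chr14:24605122-24605371 (plus strand, PSME1), chr1:109969071-109969320 (minus strand, PSMA5), chr14:53173646-53173895 (plus strand, PSMC6) and chr9:127177724-127177973 (minus strand, PSMB7).
PSMD5: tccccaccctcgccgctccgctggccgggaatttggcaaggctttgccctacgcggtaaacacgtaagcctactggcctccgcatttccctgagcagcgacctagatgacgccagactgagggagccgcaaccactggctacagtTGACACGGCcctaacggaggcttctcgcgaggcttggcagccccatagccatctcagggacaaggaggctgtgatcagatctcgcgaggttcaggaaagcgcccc
PSME1: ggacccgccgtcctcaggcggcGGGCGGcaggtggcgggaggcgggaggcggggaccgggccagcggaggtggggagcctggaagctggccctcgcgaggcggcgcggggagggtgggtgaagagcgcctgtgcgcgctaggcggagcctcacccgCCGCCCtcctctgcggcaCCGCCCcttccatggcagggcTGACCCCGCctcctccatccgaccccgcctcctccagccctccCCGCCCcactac
PSMA5: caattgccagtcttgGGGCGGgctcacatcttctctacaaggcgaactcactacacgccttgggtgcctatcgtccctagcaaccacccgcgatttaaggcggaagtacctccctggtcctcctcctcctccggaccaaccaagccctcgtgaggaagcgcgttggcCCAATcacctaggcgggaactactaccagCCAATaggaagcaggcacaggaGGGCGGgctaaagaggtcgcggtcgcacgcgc
PSMC6: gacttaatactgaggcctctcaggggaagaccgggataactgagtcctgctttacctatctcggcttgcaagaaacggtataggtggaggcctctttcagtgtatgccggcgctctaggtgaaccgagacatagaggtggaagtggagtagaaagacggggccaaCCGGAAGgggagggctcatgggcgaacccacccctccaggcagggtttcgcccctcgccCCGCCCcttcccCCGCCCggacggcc
PSMB7: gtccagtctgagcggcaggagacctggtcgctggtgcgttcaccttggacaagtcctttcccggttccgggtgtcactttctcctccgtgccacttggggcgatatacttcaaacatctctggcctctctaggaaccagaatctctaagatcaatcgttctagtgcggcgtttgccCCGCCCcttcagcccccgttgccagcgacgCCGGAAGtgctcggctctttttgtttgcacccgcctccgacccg

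A promoter was the window of 1 kb on each side of the 5′ end that the annotation gives a gene. A factor was counted there when a deposited peak overlapped it by at least 1 bp. Pol II had a peak at 41 of the 47 members (87.2%, exact 95% binomial interval 74.3 to 95.2%), beside 71.8% of all coding promoters. KAP1 was at 37 members (78.7%) beside a background of 66.2%, Larp7 at 40 (85.1%) beside 76.4%, Hexim1 at 43 (91.5%) beside 79.9% and Cdk9 at 37 (78.7%) beside 70.5%. All 5 factors met at 31 members (66.0%, interval 50.7 to 79.1%), close to the 61.5% of coding promoters that hold them. None of the 5 was at 2 members, PSMA6 and PSMB7 (4.3%), beside 17.2% of coding promoters. The Pol II interval lay above its background, and those of KAP1 (64.3 to 89.3%), Larp7 (71.7 to 93.8%), Hexim1 (79.6 to 97.6%), Cdk9 and the set of 5 held theirs. Intervals here and below cover counting error only, and with 1 library per factor they say nothing of another culture. When peaks needed a deposited −log10 q of 5 or more, the counts fell to 17 members for KAP1 (36.2%) beside 25.5%, 9 for Cdk9 (19.1%) beside 15.5% and 7 for the set of 5 (14.9%) beside 9.59%. Those 7 were PSMA7, PSMD2, PSMD7, PSMD12, PSME1, PSMG1 and PSMG3.

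Within promoters that have Pol II the order was the other way. Among the 41 members with a Pol II promoter, KAP1 was at 35 (85.4%) beside 88.1% of coding promoters with Pol II. Larp7 was at 37 (90.2%) beside 95.4%, Hexim1 at 40 (97.6%) beside 98.6% and Cdk9 at 34 (82.9%) beside 91.5%. The set of 5 was at 31 of the 41 (75.6%, interval 59.7 to 87.6%) beside 85.6%. So the members stood above the coding background over all genes and below it among Pol II promoters, for each of these 4 factors and for the set of 5, and the interval of the set of 5 held its background in both.

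**Figure D1:**
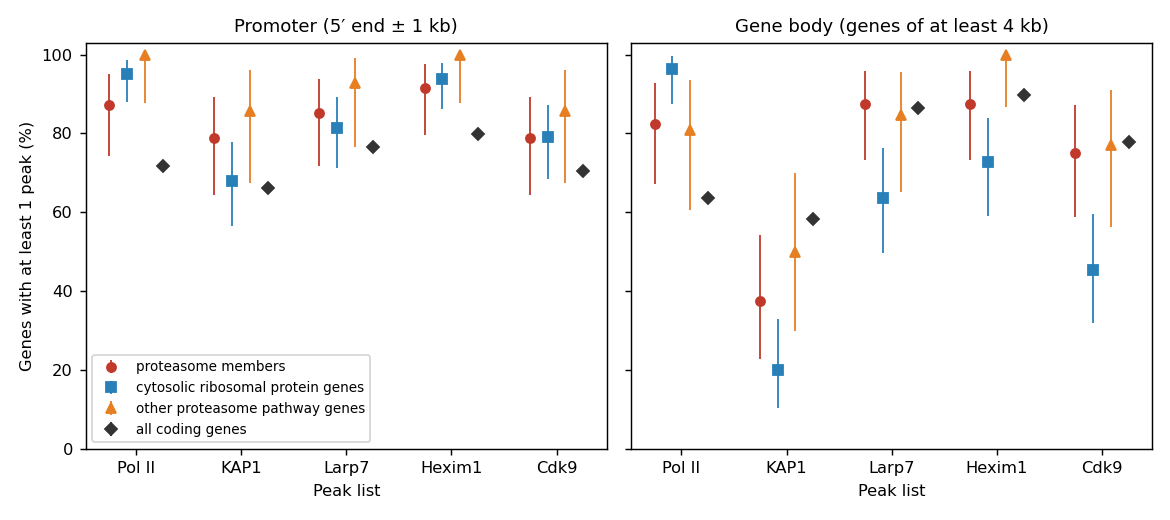
Share of genes with at least 1 peak (y axis, percent) in each peak list (x axis) at promoters (left) and in gene bodies (right) for the 47 members, 81 cytosolic ribosomal protein genes, 28 other proteasome pathway genes and all coding genes, with exact 95% binomial intervals as bars. At promoters every member share lies above the coding share, while in bodies the KAP1 share of the members is 37.5% beside 58.2%.

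The 10 Pol II promoters of members that lacked another factor were all in the core or the base. With the coding median Pol II fold as the dividing line (39.6, the deposited fold of the highest peak at a promoter over its background), all 26 members above it had KAP1, beside 95.8% of coding promoters above it. Of the 15 members at or below it, KAP1 was at 9 (60%, interval 32.3 to 83.7%) beside 80.4%. Cdk9 followed the same order, at 25 of 26 members above the line (96.2%) beside 98% and at 9 of 15 below it (60%) beside 85.1%. The 6 members with Pol II and no KAP1 were PSMA2, PSMA3, PSMA5, PSMB4, PSMB6 and PSMC6, whose Pol II folds ran from 2.70 to 26.2. The part of peak calling strength in these absences was not tested.

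Folds were ranked only within their own list, as a percentile among all coding promoters with a peak in that list. Among members with a peak, the median percentile was 57.5 in Pol II, 53.2 in KAP1, 46.1 in Larp7, 59.2 in Hexim1 and 52.1 in Cdk9. The members therefore spread over each list and did not gather at its top. By role they spread unevenly: the median Pol II fold was 24.6 (percentile 36.0) over the 13 alpha and beta ring members with a peak and 61.3 (percentile 68.4) over the 16 base and lid members with a peak. KAP1 was at 8 of the 15 alpha and beta ring promoters and at 16 of the 17 base and lid promoters, and the set of 5 was at 5 and 14 of them. These role counts are a description of these libraries, with no test of the difference.

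**Figure D2:**
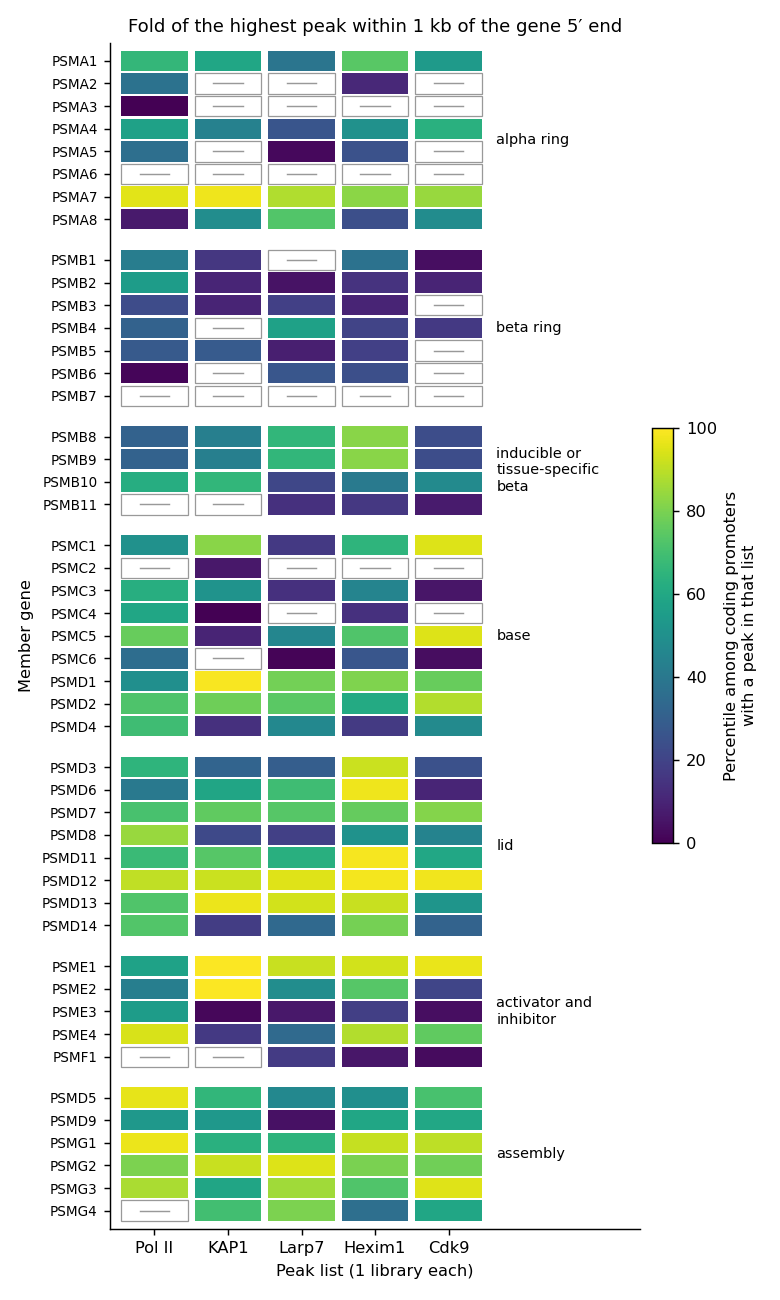
Percentile of the highest promoter fold of each member (rows, grouped by role) within each of the 5 peak lists (columns), in colour from 0 to 100, with an open box and a dash where the list has no peak. The lid block has all 40 boxes filled, the beta ring block has 11 open boxes of 35, and PSMA6 and PSMB7 are open in all 5 lists.

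The alpha ring genes encode the outer rings of the barrel, which gate entry to the cutting chamber. Pol II was at 7 of 8, KAP1 at 4, Larp7 at 5, Hexim1 at 6, Cdk9 at 4 and all 5 factors at 4. PSMA7 was the highest in every list within the ring, with a Pol II fold of 117, KAP1 7.39, Larp7 6.05, Hexim1 9.29 and Cdk9 5.66. Its testis-specific relative PSMA8 was low for Pol II, with a fold of 5.52 (percentile 6.9), yet had the other factors at KAP1 4.81, Larp7 5.44, Hexim1 5.48 and Cdk9 4.56. So the housekeeping and the testis form stood 88.6 percentile points apart in Pol II and 15.2 apart in Larp7, the smallest gap of the lists. PSMA7 and PSMA8 were at percentiles 97.7 and 48.5 in KAP1, 82.4 and 24.1 in Hexim1, and 84.7 and 48.3 in Cdk9. PSMA1 (Pol II 58.5, KAP1 5.07, Larp7 4.54, Hexim1 8.54, Cdk9 4.69) and PSMA4 (Pol II 47.9, KAP1 4.68, Larp7 4.14, Hexim1 7.00, Cdk9 4.92) also had the set of 5.

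The other alpha genes had few factors. PSMA2 had Pol II at 26.2 and Hexim1 at 4.24 and no peak of the other lists, and its nearest KAP1 peak lay 20024 bp downstream of the gene 5′ end. PSMA3 had Pol II alone, with a fold of 2.70 that was near the floor of the list (percentile 0.018). PSMA5 had Pol II at 24.6, Larp7 at 2.84 and Hexim1 at 5.58, without KAP1 or Cdk9. PSMA6 had none at its gene 5′ end, and 13749 bp downstream, at its canonical transcript start, it had Pol II at 9.71 and Hexim1 at 3.70. These 4 genes thus carried neither KAP1 nor Cdk9 at the gene 5′ end or at the canonical start.

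**Figure D3:**
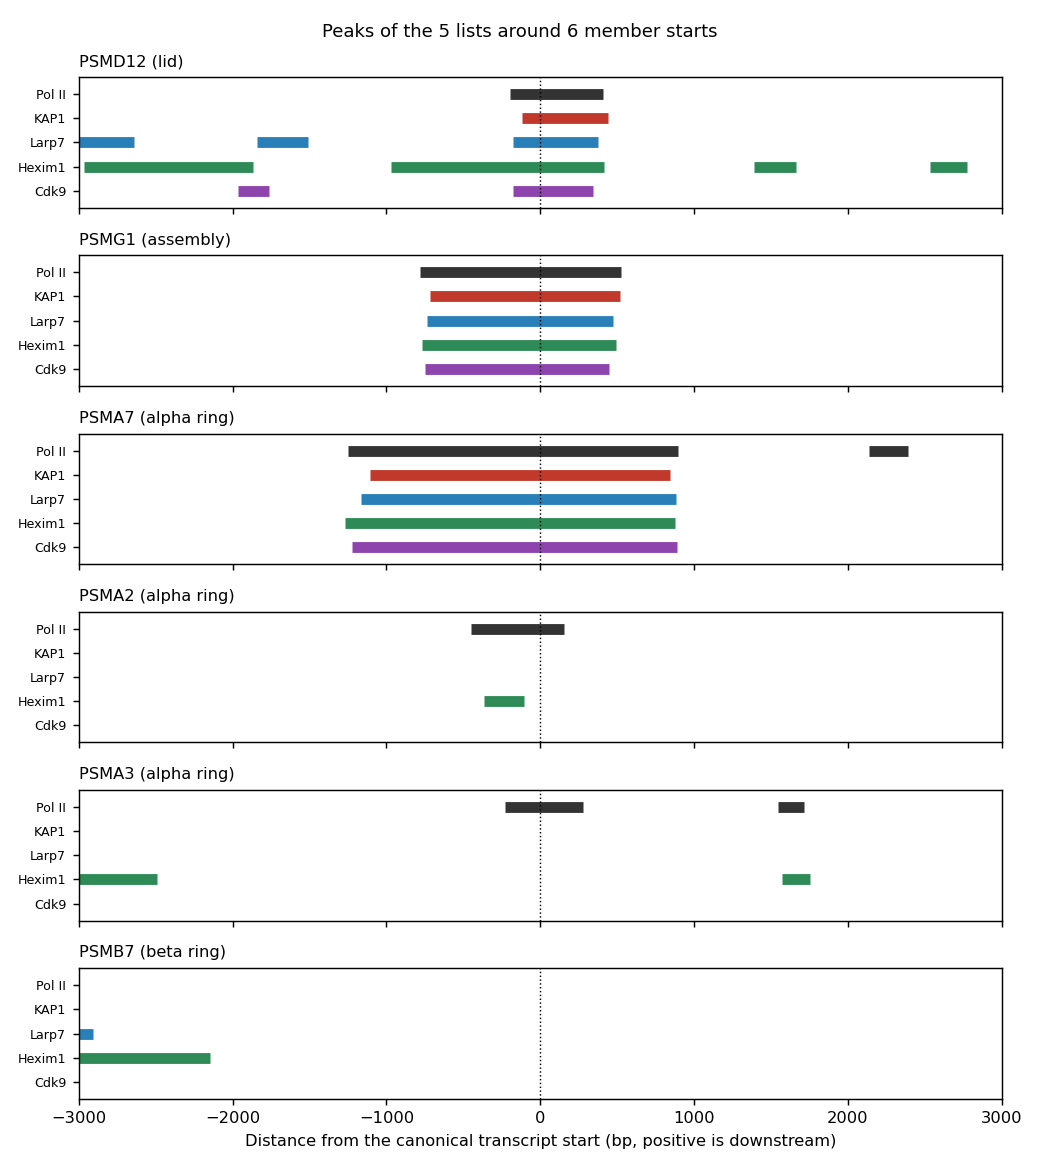
Extent of the peaks of the 5 lists (rows) within 3 kb of the canonical transcript start of 6 members (panels), as distance in bp, positive downstream. PSMD12, PSMG1 and PSMA7 have stacked peaks of all 5 lists over the start, PSMA2 has Pol II and Hexim1 only, PSMA3 has Pol II only within 1 kb and PSMB7 has none within 1 kb.

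The beta ring genes encode the inner rings, among them the catalytic subunits PSMB5 (chymotrypsin-like), PSMB6 (caspase-like) and PSMB7 (trypsin-like). Pol II was at 6 of 7, KAP1 at 4, Larp7 at 5, Hexim1 at 6, Cdk9 at 3, and only PSMB2 had all 5. Within their lists the peaks were low, with a median percentile of 29.6 in Pol II, 13.1 in KAP1, 19.1 in Larp7, 19.5 in Hexim1 and 9.8 in Cdk9. PSMB2 had Pol II at 45.1, the highest of the ring, with KAP1 at 3.75, Larp7 at 3.08, Hexim1 at 4.66 and Cdk9 at 3.44. PSMB1 had Pol II at 30.6, KAP1 at 3.95, Hexim1 at 6.31 and Cdk9 at 3.08 without Larp7, but its Pol II summit lay 1092 bp upstream, near the start of its divergent neighbour TBP at 995 bp. On the 5′ end of PSMB1 itself lay a separate Pol II peak of fold 29.0, with Hexim1 at 4.39 and Cdk9 at 2.78 within 44 bp downstream, while its nearest KAP1 peak was the one 1000 bp upstream. The nearest Larp7 peak, of fold 3.69, lay 1009 bp upstream, just outside the window. A Larp7 peak also covered the upstream Pol II summit, so the missing Larp7 rests on the window edge.

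PSMB3 had Pol II at 11.4, KAP1 at 3.73, Larp7 at 3.88 and Hexim1 at 4.11 without Cdk9. PSMB4 had Pol II at 19.5, Larp7 at 5.01, Hexim1 at 5.16 and Cdk9 at 3.72 without KAP1. PSMB5 had Pol II at 16.3, KAP1 at 4.31, Larp7 at 3.36 and Hexim1 at 5.04 without Cdk9. Each of these genes thus lacked 1 factor, either Cdk9 or KAP1. PSMB6 had Pol II at 4.18, Larp7 at 4.16 and Hexim1 at 5.47, with neither KAP1 nor Cdk9, and its Pol II summit was 869 bp past the canonical start. Its nearest Cdk9 peak, of fold 3.13, began 1005 bp downstream of the gene 5′ end, just outside the window. That peak was 985 bp from the canonical start and counted there. PSMB7 had no peak within 1 kb, and the nearest Pol II peak was 13305 bp upstream with a fold of 4.13, so none of the 3 standard catalytic genes had the set of 5.

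The inducible beta genes PSMB8, PSMB9 and PSMB10 replace PSMB5, PSMB6 and PSMB7 in the immunoproteasome, and PSMB11 is the beta gene of the thymus cortex. PSMB10 had Pol II at 53.8, KAP1 at 5.24, Larp7 at 3.98, Hexim1 at 6.47 and Cdk9 at 4.53. PSMB8 and PSMB9 start 543 bp apart on opposite strands and share the same peaks, at Pol II 19.3, KAP1 4.67, Larp7 5.24, Hexim1 9.27 and Cdk9 3.94, so they are 1 measurement and not 2. At the canonical start of PSMB9, 10056 bp further along and 488 bp from TAP1, which encodes a peptide transporter, Pol II was at 36.2, KAP1 at 3.53, Larp7 at 4.69, Hexim1 at 8.71 and Cdk9 at 4.50. PSMB11 had no Pol II or KAP1 and had Larp7 at 3.63, Hexim1 at 4.81 and Cdk9 at 3.32, each under percentile 17. In each of the 3 exchange pairs the inducible gene had all 5 factors where the standard gene had 0, 3 or 4 of them. By canonical starts PSMB6 had 4 in place of 3. At the gene 5′ ends the pairs of PSMB8 and PSMB9 rest on the same peaks, so they are not separate cases. The Pol II summit lay 867 bp upstream of the canonical start at PSMB8, 538 bp upstream at PSMB9 and 845 bp downstream at PSMB10.

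The base holds the ATPases PSMC1 to PSMC6, the scaffold subunits PSMD1 and PSMD2 and the ubiquitin receptor PSMD4. Pol II was at 8 of 9, KAP1 at 8, Larp7 at 7, Hexim1 at 8, Cdk9 at 7 and the set of 5 at 6. PSMC5 led in Pol II with 72.5, and had KAP1 at 3.73, Larp7 at 4.72, Hexim1 at 8.41 and Cdk9 at 6.34. PSMC6 was lowest in Pol II with 24.0, without KAP1, and had Larp7 at 2.72, Hexim1 at 5.68 and Cdk9 at 3.06. PSMC4 had Pol II at 50.5 and Hexim1 at 4.58, a KAP1 peak of 2.99 near the floor of that list (percentile 0.14), and neither Larp7 nor Cdk9. The rank in Pol II and the rank in KAP1 therefore parted in the base: PSMD1 was at percentile 49.4 in Pol II (39.1) and 99.1 in KAP1 (8.10), with Larp7 at 5.64, Hexim1 at 9.11 and Cdk9 at 5.33.

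PSMC2 showed how much the choice of start matters. At its gene 5′ end it had only KAP1, at 3.58. Within 1 kb of the transcript start 16344 bp downstream it had Pol II at 62.4, KAP1 at 6.33 and Cdk9 at 5.83, and with them Larp7 at 5.79 and Hexim1 at 6.74. Coding neighbours were looked for only at gene 5′ ends and canonical starts, so to which gene these peaks belong cannot be told. The Pol II peak was centred 16064 bp from the gene 5′ end, upstream of that transcript start. That Pol II peak ends 2769 bp upstream of its canonical start, so PSMC2 counts as without Pol II by the gene end and by the canonical start, and as having all 5 factors when any annotated start is taken. The remaining base genes PSMC1, PSMC3, PSMD2 and PSMD4 had all 5 factors, with Pol II between 39.9 and 65.9.

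The lid genes encode the scaffold that carries the deubiquitinase PSMD14, and their promoters were the most complete of the 7 roles. All 5 factors were at all 8 of them, PSMD3, PSMD6, PSMD7, PSMD8, PSMD11, PSMD12, PSMD13 and PSMD14. Their Pol II folds ran from 29.3 at PSMD6 to 99.5 at PSMD12, with a median of 65.4 (percentile 71.5). Hexim1 stood high in its list, with a median fold of 10.5 (percentile 91.7) and a range of 7.02 to 13.0. The 3 highest Hexim1 folds of all members were lid genes: PSMD11 at 13.0, PSMD12 at 12.6 and PSMD6 at 12.1. In Cdk9 the lid was not high, with a median percentile of 48.4.

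PSMD12, a lid scaffold subunit, had Pol II at 99.5, KAP1 at 6.49, Larp7 at 6.61, Hexim1 at 12.6 and Cdk9 at 6.97, the highest Larp7 and Cdk9 folds of all members. PSMD6 had the lowest Pol II of the lid with KAP1 at 5.06, Larp7 at 5.33, Hexim1 at 12.1 and Cdk9 at 3.46, so that its Hexim1 (percentile 97.4) and its Cdk9 (percentile 10.4) sat at opposite ends of their lists. PSMD11 had Pol II at 60.7, KAP1 at 5.50, Larp7 at 5.17 and Cdk9 at 4.83 beside its leading Hexim1. These genes shared the presence of every factor and not its rank. PSMD13 had Pol II at 66.4, KAP1 at 7.25, Larp7 at 6.41, Hexim1 at 10.5 and Cdk9 at 4.64, but its 5′ end lies 35 bp from that of SIRT3 on the other strand and the Pol II summit was 707 bp upstream of the canonical start. A separate Pol II peak of 35.5 lay on the 5′ end of PSMD13 and a separate KAP1 peak of 6.07 lay 47 bp downstream of it, while single Larp7, Hexim1 and Cdk9 peaks spanned both sites. The canonical start of SIRT3 is 634 bp upstream of that of PSMD13, on the side of the higher Pol II and KAP1 peaks.

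**Figure D4:**
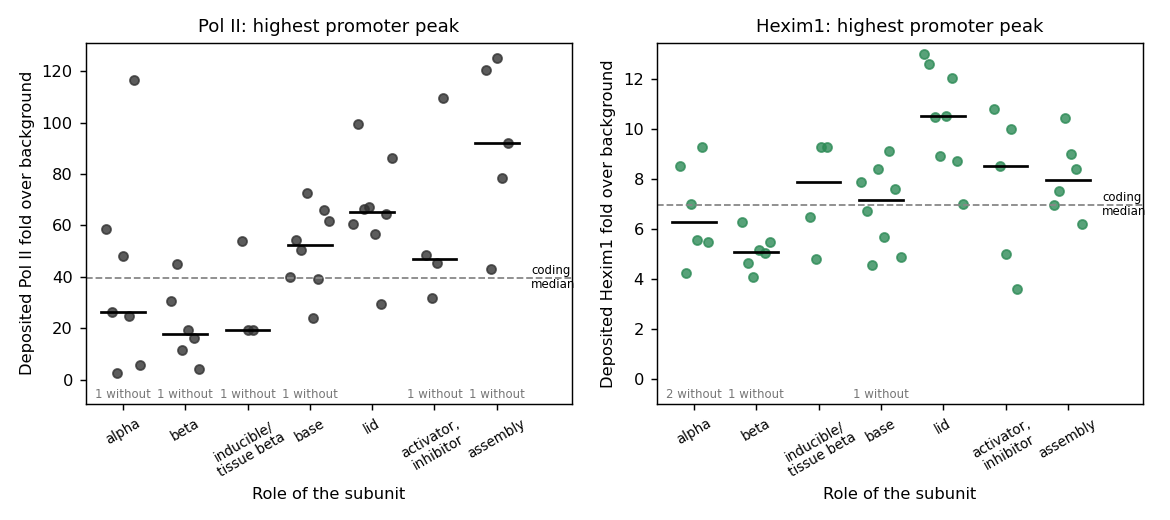
Deposited fold of the highest Pol II peak (left) and Hexim1 peak (right) at each member promoter (points) by role, with the group median as a bar, the coding median as a dashed line and the number without a peak at the foot. The lid and assembly medians for Pol II, 65.4 and 92.0, lie above the coding median of 39.6 and the alpha and beta ring medians, 26.2 and 17.9, below it, and the lid median for Hexim1 is 10.5 beside 6.97.

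The activators PSME1 and PSME2 form the interferon-induced cap of the immunoproteasome, PSME3 is its nuclear relative, PSME4 is a large single-chain activator and PSMF1 is an inhibitor of the core. PSME1 and PSME2 had the 2 highest KAP1 folds of all members, 8.27 and 8.25 (percentile 99.4 for both), with ordinary Pol II at 48.5 and 31.6. PSME1 had Larp7 at 6.27, Hexim1 at 10.8 and Cdk9 at 6.70, and PSME2 had Larp7 at 4.80, Hexim1 at 8.52 and Cdk9 at 3.85. Both were thus higher in rank for KAP1 than for Pol II, by 41.9 and 56.8 percentile points. The Pol II summit of PSME2 lay 1001 bp upstream of its canonical start, on the side of RNF31, which starts 888 bp away on the other strand. A further coding gene, listed only as ENSG00000259529, starts 22 bp from the gene 5′ end of PSME2 on that strand. To which of these genes the KAP1 peak belongs cannot be told apart.

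PSME4 was the reverse case, with Pol II at 109.6 (percentile 94.0) and KAP1 at 3.98 (percentile 16.7), beside Larp7 at 4.40, Hexim1 at 10.0 and Cdk9 at 5.29. PSME3 had Pol II at 45.3 and KAP1 at 3.23 at the gene 5′ end, and Pol II at 106 and KAP1 at 5.80 at its canonical start 9012 bp downstream. PSMF1 had no Pol II or KAP1 at the gene 5′ end, where Larp7 was at 3.81, Hexim1 at 3.60 and Cdk9 at 3.01. At its canonical start, 5362 bp downstream, it had Pol II at 31.1, KAP1 at 4.92, Larp7 at 3.60, Hexim1 at 11.0 and Cdk9 at 3.90. By canonical starts all 5 activator and inhibitor genes therefore had the set of 5.

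The assembly genes encode chaperones that build the particle: PSMG1 to PSMG4 assemble the alpha ring and PSMD5 and PSMD9 help assemble the base. They had the highest Pol II of the 7 roles, with a median fold of 92.0 (percentile 87.3) over the 5 with a peak. PSMG1 was the highest of all members in Pol II at 125, with KAP1 at 5.19, Larp7 at 5.21, Hexim1 at 10.4 and Cdk9 at 5.96. PSMD5 followed with Pol II at 120.3, KAP1 at 5.24, Larp7 at 4.74, Hexim1 at 6.95 and Cdk9 at 5.13. The high Pol II of both went with middling KAP1 ranks, percentiles 63.5 and 65.7. PSMG3 had Pol II at 92.0, KAP1 at 5.06, Larp7 at 5.91, Hexim1 at 8.40 and Cdk9 at 6.42, and PSMD9 was the lowest of the group in Pol II at 43.2, with KAP1 at 4.92, Larp7 at 3.05, Hexim1 at 7.51 and Cdk9 at 4.82.

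PSMG2 and PSMG4 have peaks at both an annotated gene end and a distant canonical start. PSMG2 had Pol II at 78.6, KAP1 at 6.46, Larp7 at 6.58, Hexim1 at 9.02 and Cdk9 at 5.39 at its gene 5′ end, 64 bp from that of SPIRE1, and Pol II at 84.8 with KAP1 at 4.40 at its canonical start 44999 bp downstream. PSMG4 had KAP1 at 5.37, Larp7 at 5.71, Hexim1 at 6.22 and Cdk9 at 4.82 without Pol II at its gene 5′ end, which is 327 bp from that of TUBB2B. At its canonical start, 27544 bp downstream, PSMG4 had Pol II at 79.8, KAP1 at 8.06, Larp7 at 6.08, Hexim1 at 12.1 and Cdk9 at 5.64. By canonical starts every assembly gene had all 5 factors. For PSMG2 the Pol II summit lay 422 bp upstream of the canonical start, and CEP76 starts 319 bp upstream on the other strand.

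The canonical transcript start lay over 1 kb from the gene 5′ end in 8 members: PSMA1, PSMA6, PSMB9, PSMC2, PSME3, PSMF1, PSMG2 and PSMG4. With canonical starts Pol II was at 44 members (93.6%) beside a background of 74.8%, and the 3 without were PSMB7, PSMB11 and PSMC2. KAP1 was at 36 (76.6%) beside 69.5%, Larp7 at 40 (85.1%) beside 78.8%, Hexim1 at 44 (93.6%) beside 81.9% and Cdk9 at 38 (80.9%) beside 73.3%. The set of 5 was at 32 (68.1%) beside 64.9%. The counts moved by at most 3 genes while the genes behind them moved more: PSMA1, whose gene 5′ end is shared with PDE3B 169 bp away, had Pol II at 12.3 and no KAP1 at its canonical start 123249 bp downstream.

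The other factors often but not always covered the Pol II summit. Over the 44 canonical starts with Pol II, the summit lay a median of 67.5 bp past the start, beside 65 bp over coding genes, and the peak was 636.5 bp wide at the median, beside 792 bp. A Hexim1 peak covered the summit in 43 of 44 (97.7%) beside 97.7% of coding genes, and a Larp7 peak in 38 (86.4%) beside 93.9%. A Cdk9 peak covered it in 33 (75%, interval 59.7 to 86.8%) beside 88.3% and a KAP1 peak in 31 (70.5%, interval 54.8 to 83.2%) beside 83.9%. PSMA3 was the gene without Hexim1 at the summit. PSMB2, PSMB3, PSMB5, PSMB8 and PSMD14 had a KAP1 peak at the promoter that did not reach the Pol II summit.

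Shared promoters limit what can be assigned to a member. A coding gene on the other strand started within 1 kb of the gene 5′ end of 11 members (23.4%, interval 12.3 to 38.0%), beside 13.5% of coding genes. Besides PDE3B, TBP, SIRT3, RNF31, SPIRE1, TUBB2B and the PSMB8 and PSMB9 pair, the neighbours were ENSG00000259529 at PSME2 (22 bp), MRPL32 at PSMA2 (191 bp), SS18L1 at PSMA7 (329 bp) and ACYP2 at PSME4 (155 bp). At the canonical starts PSMC5 had FTSJ3 at 232 bp and PSMG2 had CEP76 at 319 bp. The leading values of PSMA7 and PSME4 and the sparse promoter of PSMA2 are therefore values of a gene pair each.

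The gene body was counted from 2 kb past the gene 5′ end, up to the 3′ end, where the gene was 4 kb or longer, as 40 members are. Pol II had a peak in the body of 33 (82.5%, interval 67.2 to 92.7%) beside 63.5% of coding bodies, and KAP1 in 15 (37.5%, interval 22.7 to 54.2%) beside 58.2%. Larp7 was in 35 bodies (87.5%) beside 86.5%, Hexim1 in 35 (87.5%) beside 89.8% and Cdk9 in 30 (75%) beside 77.8%. In the bodies, then, the members were above the coding share for Pol II and below it for KAP1, with both intervals clear of the background, and near it for the other lists when every deposited peak was counted. The members are shorter, with a median length of 19139.5 bp for these 40 beside 33760 bp. Within genes of 4 to 40 kb, a range chosen after the values were seen, Pol II was in 23 of 29 member bodies (79.3%) beside 58.2% and KAP1 in 7 of 29 (24.1%) beside 49.6%. With each list cut to its 20000 peaks of highest −log10 p, the order for Pol II turned, at 10 of 40 member bodies (25%, interval 12.7 to 41.2%) beside 27.6%, and KAP1 was in 8 (20%, interval 9.05 to 35.6%) beside 31.4%. Both of these intervals hold their background.

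Members with a Pol II promoter gave the same order, with Pol II in the body of 28 of 35 (80.0%, interval 63.1 to 91.6%) beside 69.7%, a value that the interval holds, and KAP1 in 11 of 35 (31.4%, interval 16.9 to 49.3%) beside 61.4%. By role, KAP1 was in 6 of 13 alpha and beta ring bodies and in 2 of 17 base and lid bodies, PSMC2 and PSMD3, beside 58.2% of all coding bodies. The roles were not matched for gene length. Some of the 15 bodies with KAP1 hold an internal start: the highest KAP1 peak of PSMB9, PSMC2, PSME3, PSMF1, PSMG2 and PSMG4 lay within 1 kb of an annotated start of the gene inside the body. At PSMB9 that peak ended 54 bp upstream of the canonical start and did not cover it. After peaks within 1 kb of any transcript start were set aside, KAP1 was in 9 bodies (22.5%) beside 43.8%, those of PSMA1, PSMB2, PSMB5, PSMB7, PSMD3, PSME4, PSMF1, PSMD9 and PSMG4.

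Body peaks of the 7SK snRNP past a stricter threshold were fewer in the members than in coding genes as a whole. When peaks needed a −log10 q of 5 or more, Larp7 was in 7 of 40 member bodies (17.5%, interval 7.34 to 32.8%) beside 46.5% of coding bodies, and Hexim1 in 9 (22.5%, interval 10.8 to 38.5%) beside 55%. The 7 with Larp7 were PSMA1, PSMB9, PSMC2, PSME3, PSMF1, PSMG2 and PSMG4, all of them genes with a canonical start over 1 kb inside the gene, and Hexim1 was in these and in PSMB7 and PSMD9. Not all of these Larp7 peaks lay at that start. Within 1 kb of it, the Larp7 peak of highest fold had a −log10 q of 2.02 at PSMA1 and 3.52 at PSMF1. PSMC2 had no Larp7 peak there, and at PSMB9, PSME3, PSMG2 and PSMG4 the −log10 q was 5.52 or more. In genes of 4 to 40 kb the values were 2 of 29 (6.90%, interval 0.846 to 22.8%) beside 40% for Larp7 and 3 of 29 (10.3%, interval 2.19 to 27.4%) beside 48.9% for Hexim1. The cytosolic ribosomal protein genes were also low at this threshold, with Larp7 in 7 of 55 bodies (12.7%) and Hexim1 in 14 (25.5%). KAP1 at this threshold was in 4 of 40 member bodies (10%, interval 2.79 to 23.7%), those of PSMC2, PSME3, PSMF1 and PSMG4, beside 15.6%, a value that the interval holds, unlike that of the full list. The near equality of the full lists thus rested on peaks of lower significance, and this comparison was chosen after the values were seen.

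**Figure D5:**
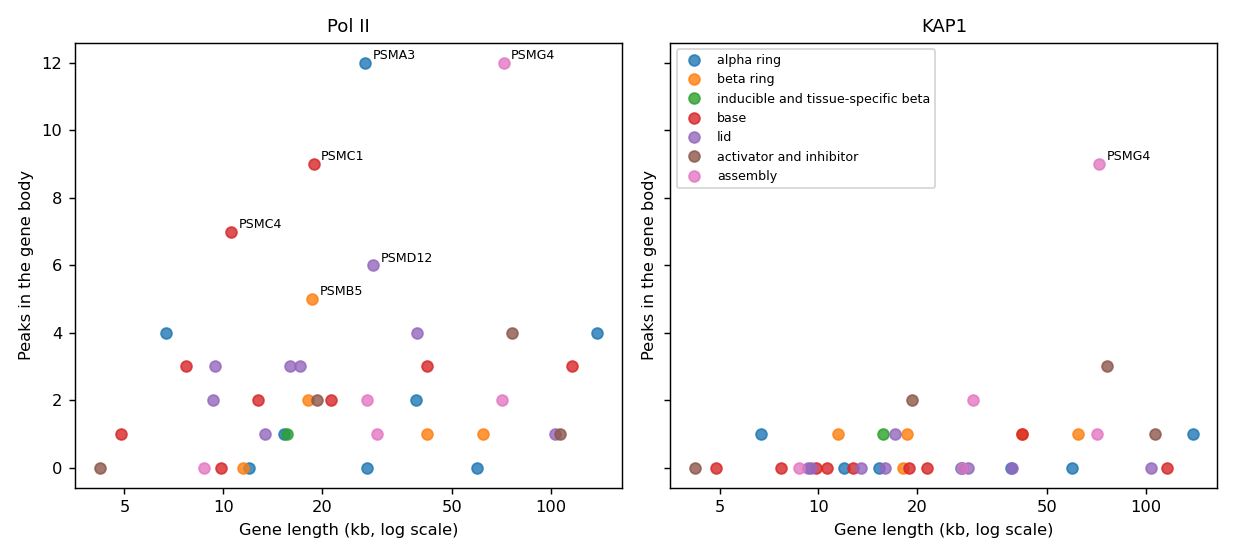
Number of Pol II peaks (left) and KAP1 peaks (right) in the body of each of the 40 members of at least 4 kb (y axis) against gene length in kb on a log axis, coloured by role. PSMA3 and PSMG4 have 12 Pol II peaks each and PSMC1 has 9, while KAP1 has 9 peaks in PSMG4 and at most 3 in any other member.

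The bodies with most Pol II peaks were those of PSMA3, PSMG4 and PSMC1. PSMA3 had 12 Pol II peaks over a gene of 27170 bp, covering 12.9% of the body, although Pol II at its start was near the floor of the list. The highest of them had a fold of 9.0 and lay 24737 bp from the gene 5′ end, close to the 3′ end. It was also within 1 kb of an annotated PSMA3 transcript start, 25132 bp from the gene 5′ end. Of the 12 Pol II peaks, 6 lay over 1 kb from any transcript start. The body had 4 Larp7 and 7 Hexim1 peaks but none of KAP1 or Cdk9. PSMG4 also had 12, but its body contains its canonical start, where the highest of them had a fold of 79.8. PSMC1 had 9 over 18903 bp, covering 13.0% of the body, with a highest fold of 15.3 at 17724 bp, 2 Larp7, 4 Hexim1 and 2 Cdk9 peaks and none of KAP1. In PSMA3 and PSMC1 the strongest body peak was thus near the 3′ end of the gene. PSMB7, without a peak at its start, likewise had its 1 Pol II body peak, of fold 10.9, at 60448 bp of its 61980 bp.

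Across member promoters the ranks of Pol II and of the other lists ran together to different degrees. Spearman's rho of the Pol II fold was 0.60 with Cdk9 over 34 members, 0.46 with Hexim1 over 40, 0.35 with Larp7 over 37 and 0.21 with KAP1 over 35. Over all coding promoters with both peaks these were 0.40, 0.55, 0.016 and 0.34. The points share their libraries and their base composition, so these are descriptions of the lists and carry no p-value. In the members rho was thus highest with Cdk9 and lowest with KAP1. PSMB8 and PSMB9 enter each rho with the same folds, although they are 1 measurement, and some other points are promoters shared with a neighbouring gene.

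Antioxidant response element letters were read in the 250 bases before each gene 5′ end, on both strands. TGACNNNGC was in 12 of 47 members (25.5%, interval 13.9 to 40.3%), beside 11.0% of all coding windows of that length and 11.8% of those with Pol II. The members were PSMA6, PSMA7, PSMB3, PSMC3, PSMD3, PSMD6, PSMD12, PSME1, PSME4, PSMD5, PSMD9 and PSMG1, and before canonical starts it was in 12, beside 11.3%, with PSMB6, PSMB9 and PSME2 in place of PSMA6, PSMC3 and PSMD6. They include the 4 highest Pol II folds of the members and also PSMA6, which has no peak at that end. PSMD5 has it at 105 and PSME1 at 55 bases before the 5′ end, in the runs printed above, and PSMA7 has 3 matches.

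CCAAT was in 18 members (38.3%) beside 32.9% and GGGCGG in 27 (57.4%) beside 48.9%, or 63.4% of coding windows with Pol II. CCGGAAG was in 7 (14.9%) beside 8.96%. Before canonical starts CCGGAAG was in 14 (29.8%, interval 17.3 to 44.9%) beside 11.9%, or 14.9% of those with Pol II, a gap at least as wide as that of TGACNNNGC there. TATAAA was in 3 members, PSMA8, PSMC1 and PSMD8 (6.38%), beside 10.1%, or 5.79% of coding windows with Pol II. Before canonical starts its order turned, at 5 members (10.6%) beside 9.43%, or 5.10% of those with Pol II. The interferon response letters were in 3, PSMA4, PSMB4 and PSMB9 (6.38%), beside 2.99%, the NF-kB letters in 0 beside 1.78% and those of the nuclear respiratory factor in 1, PSMB4 (2.13%), beside 5.61%. Before canonical starts the interferon response letters were in 4, PSMB4, PSMB10, PSME2 and PSMG4 (8.51%), beside 2.84%. The NF-kB letters were there in 1 (2.13%) beside 1.88%, and those of the nuclear respiratory factor in 4 (8.51%) beside 7.55%. GC content of the window was 62.0% at the median for the 31 members with all 5 factors and 56.8% for the 16 others, beside 59.6% over coding genes, and its part in the peak counts was not tested.

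A list of 28 other genes of the pathway gave the surroundings of the members: further subunits and chaperones, shuttles that bring ubiquitin chains, ubiquitin genes and the regulators NFE2L1 and NFE2L2. Pol II was at all 28 promoters, KAP1 at 24 (85.7%), Larp7 at 26 (92.9%), Hexim1 at 28, Cdk9 at 24 (85.7%) and the set of 5 at 23 (82.1%). Over all coding promoters these shares were 71.8, 66.2, 76.4, 79.9, 70.5 and 61.5%, in the same order. POMP, which matures the core with PSMG1 and PSMG2, had Pol II at 71.5 and KAP1 at 5.88. The lid subunit gene SEM1 had Pol II at 13.8 and Hexim1 at 3.47 alone, unlike the 8 lid members. NFE2L1 had Pol II at 69.8 and KAP1 at 4.02. The 81 cytosolic ribosomal protein genes, another set of coordinately expressed genes, had Pol II at 77 promoters (95.1%), KAP1 at 55 (67.9%) and Larp7 at 66 (81.5%). Hexim1 was at 76 (93.8%), Cdk9 at 64 (79.0%) and the set of 5 at 52 (64.2%). KAP1 was in 11 of their 55 bodies (20%), beside 58.2% of coding bodies and 37.5% of member bodies. A KAP1 body share below the coding share was thus not particular to the members. The other pathway genes had KAP1 in 13 of 26 bodies (50%).

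The lists held between 61312 (KAP1) and 229679 (Hexim1) peaks, with 92939 for Pol II, 184243 for Larp7 and 120115 for Cdk9, and read depth is unknown. The labels call the cell type endothelial, while HCT116 is of epithelial origin. Pol II was at 6 of 8 epithelial marker promoters (not VIL1 or LGALS4), at 2 of 7 endothelial ones (CLDN5 and ESAM) and at 1 of 6 blood ones (SPI1). With canonical starts the counts were 6, 2 and 2. Over all coding promoters the Pol II share was 71.8%, near that of the epithelial markers, and these few genes do not settle the cell type. The endothelial genes CDH5, VWF, TEK, TIE1 and KDR had no Pol II peak at the promoter, and PECAM1 was not matched.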

How the data were processed

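The data are peak lists of 5 ChIP-seq libraries of HCT116 cells, 1 per antibody and without replicates. The submitters' processing notes name Bowtie 1.1, MACS2 and the build hg19. The sources used here do not give the calling settings, the control or the read depth. The deposited fold ratio of each peak over its background is the authors' and was used to rank peaks within their own list. The deposited −log10 p and q of each peak set the stricter lists. The deposited score was not used, and the other deposited column, the Pol II summit position in bp from the peak start, placed the summits. A deposited list leaves out weaker signal, so an absent peak is not absent binding.

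Coordinates are hg19 (GRCh37), written 1-based. GENCODE release 44 on GRCh37 gave 1 record for each of 19222 coding symbols on chromosomes 1 to 22. Promoters, bodies, percentiles and motif matches were computed in Python 3.11.15 with pandas 2.3.3 and scipy 1.17.1, and the overlap code was checked on simulated data. Promoter shares of the members were compared with those of all coding genes with exact (Clopper-Pearson) 95% intervals, and no p-value is given, since 1 library per factor leaves no replicate error to test against. All members are named. Full values are given for the highest and lowest Pol II fold of each role, the 3 highest of each list, members without Pol II, Pol II members lacking a factor, the exchange pairs and the 3 bodies with most Pol II peaks. The members and all lists were chosen with earlier results of these data known. Alternatives were stricter or equally long lists, other windows, overlap rules, transcript starts and bodies, and other backgrounds.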

Additional observations from a re-analysis of the deposited data

How the results depend on the processing

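Promoter counts of the members kept within 1.5 times of their values with windows of 500 bp or 2 kb on each side, with the peak middle inside the window, with any transcript start and with the canonical start, which was added after the data were seen. Stricter lists moved them. Where peaks needed a −log10 q of 5 or more, KAP1 was at 17 promoters, Larp7 at 24, Cdk9 at 9 and all 5 factors at 7, the median Cdk9 percentile was 75.7, and bodies with KAP1 were 4, Larp7 7, Hexim1 9 and Cdk9 5. With each list cut to its 20000 peaks of highest −log10 p, Larp7 was at 17 promoters, Hexim1 at 28, Cdk9 at 23 and all 5 at 11, and Pol II was in 10 bodies, KAP1 in 8, Larp7 in 5, Hexim1 in 8 and Cdk9 in 9. Both settings keep fewer peaks. Away from transcript starts by over 1 kb, KAP1 was in 9 bodies.

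The difference between members and coding genes turned negative among Pol II promoters, at -2.73 percentage points for KAP1, -5.14 for Larp7, -1.03 for Hexim1, -8.61 for Cdk9, -9.97 for all 5 and -4.78 for Larp7 in bodies. Pol II promoters give no value for Pol II itself in that setting. At that −log10 q, an alternative for differences in bodies added after the data were seen, the difference was -28.97 for Larp7, -32.5 for Hexim1 and 1.82 for Cdk9, and in genes of 4 to 40 kb -33.1 for Larp7 and -38.6 for Hexim1. With the 20000 peaks, also added after the data were seen, the body difference turned to -2.64 for Pol II and -22.1 for Larp7. The causes were not tested. No paired analysis was possible because each factor has 1 library and no result comes from a test between replicates.

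Read depth is unknown, so signal under the calling threshold of a list cannot be told apart from no signal, and no difference between members has a replicate check.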
